A study of Mus musculus with 16 samples.

Results

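The bone morphogenetic protein (BMP) and growth differentiation factor (GDF) genes described here are 7 ligands (Bmp2, Bmp4, Bmp5, Bmp6, Bmp7, Gdf5 and Gdf6), the secreted antagonist Grem1 and the membrane pseudoreceptor Bambi. They were taken by gene name from the deposited count table. All 9 were found among its 41204 genes, and all 9 passed the filter on low counts that left 23754 genes for testing. RNA came from the Achilles tendon (heel), the patellar tendon (knee), the forepaw flexor tendon (digits) and the supraspinatus tendon (shoulder) of C57BL/6J mice, an inbred laboratory strain. Each tendon had 4 libraries, numbered as mouse 1 to 4, and no treatment or genetic change is named in the labels. The labels used here give no age or sex, and do not say whether equal numbers in different tendons mark one animal. The p-values therefore measure the spread between these libraries. The design asked how mRNA levels differ between each pair of tendons.

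BMPs and GDFs are secreted dimers of the transforming growth factor beta superfamily. They bind paired type I and type II receptor kinases, which phosphorylate Smad1, Smad5 and Smad9 and so switch on genes such as the Id family. Antagonists such as gremlin and noggin hold the ligands away from the receptors, and Bambi resembles a type I receptor but lacks the kinase. In the limb, Gdf5 marks the forming joints, Bmp4 acts where tendon attaches to bone, and Bmp2 and Bmp7 drive cartilage and bone formation.

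Libraries held 84414005 to 97180849 counts in Achilles, 97242489 to 106573353 in Flexor, 34559686 to 63235636 in Patellar, with 86898889 to 107805065 in Supraspinatus. Patellar libraries stood apart: rRNA-like genes took 13.2% to 42.0% of their counts, against 1.86% to 4.91% in the other 12. All 11 tendon fibroblast markers had counts in every tendon and together took 1.25% to 7.12% of a library. The 20 skeletal muscle markers took 5.39% to 10.2% in Achilles, 8.15% to 11.5% in Flexor, 0.0586% to 0.921% in Patellar, with 15.8% to 16.8% in Supraspinatus. In whole tissue, fewer cells of a type and less RNA per cell cannot be told apart.

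Levels below are library-size-scaled counts (CPM) adjusted by the trimmed mean of M-values (TMM). A gene is called higher or lower when edgeR's quasi-likelihood test, fitted to all 16 libraries, gave a Benjamini-Hochberg adjusted p under 0.05 over all genes tested. Log2 fold changes are given with their standard errors, 4 libraries against 4. Some are also given with the muscle markers as a covariate. The muscle shares of Patellar and of Supraspinatus overlapped those of no other tendon. Muscle and tendon thus cannot be told apart there, so such values extrapolate and do not show a difference freed of muscle.

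Of the 9 genes, 8 differed over the 4 tendons, where 64.9% of all genes tested did. Grem1 had the smallest adjusted p (5.84e-07) and Bmp2 the largest (0.248). Between pairs, 4 of 9 were called in Flexor minus Achilles, where 16.2% of all genes were, with 3 higher (background 6.5%) and 1 lower (9.72%). In Patellar minus Achilles 6 were called (background 38.4%), 1 higher (17.4%) and 5 lower (21.1%). In Supraspinatus minus Achilles 6 were called (33.6%), 2 higher (16.9%) and 4 lower (16.7%). In Patellar minus Flexor 5 were called (50.3%), 1 higher (24.2%) and 4 lower (26.2%). In Supraspinatus minus Flexor 4 were called (27.1%), 1 higher (14.7%) and 3 lower (12.4%). In Supraspinatus minus Patellar 3 were called (53.3%), all of them higher (26.4%), and 26.8% of all genes were lower. The counts in the pairs of Patellar with Flexor and with Supraspinatus were thus near or under the background share. The members' median log2 difference was 0.60, -1.30, -0.54, -1.85, -0.14 and 0.18 in these 6 comparisons in turn, and that of all genes lay between -0.08 and 0.00. Of the 28 calls among 54 gene and pair combinations, 26 had no overlap between the libraries of the 2 tendons, and 3 pairs that were not called had none either. Per comparison 3 to 6 of the 9 genes did not overlap, where 31% to 41.5% of all genes tested did not.

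**Figure D1:**
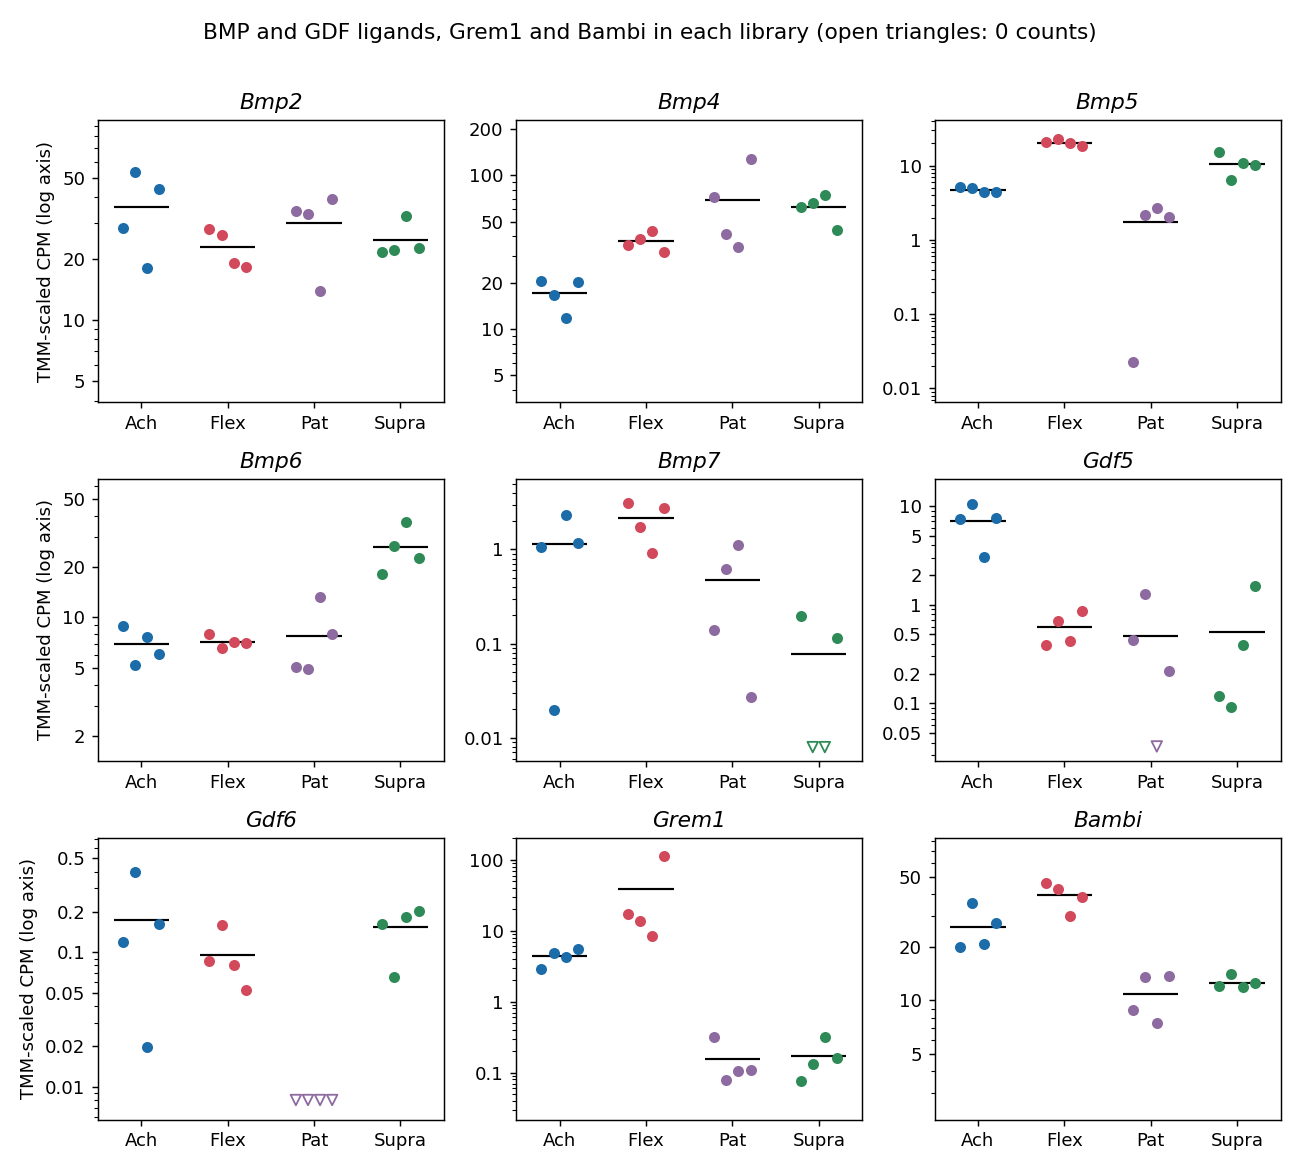
TMM-scaled CPM on a log axis for each gene, with 1 point per library, a black line at the mean of 4 libraries and open triangles for libraries with 0 counts. Grem1 lay between 8.44 and 114 CPM in Flexor and between 0.0757 and 0.322 CPM in Patellar and Supraspinatus, and Bmp6 was highest in Supraspinatus.

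Grem1 codes for gremlin, a secreted antagonist that binds BMP2, BMP4 and BMP7. It lies on chromosome 2, 113746164 to 113758646 on the minus strand of GRCm38 (ENSMUSG00000074934). In Flexor its level was 17.2, 13.8, 8.44 and 114 CPM in replicates 1 to 4. In Achilles it was 2.84, 4.88, 4.24 and 5.58 CPM. In Patellar it was 0.322, 0.0781, 0.104 and 0.108 CPM, and in Supraspinatus 0.0757, 0.131, 0.318 and 0.159 CPM. Every Flexor library lay above every Achilles library, and every Achilles library at least 8.83-fold above every Patellar and Supraspinatus library. The Patellar and Supraspinatus levels rest on 3 to 26 counts a library, and those 2 tendons overlapped.

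On the log2 scale Grem1 was higher in Flexor than in Achilles by 3.13 ± 0.67 (edgeR adjusted p = 0.0049). It was lower than in Achilles in Patellar (-4.86 ± 0.86, edgeR adjusted p = 0.000404) and in Supraspinatus (-4.68 ± 0.79, edgeR adjusted p = 0.000327). Against Flexor the differences were -7.99 ± 0.92 in Patellar and -7.81 ± 0.87 in Supraspinatus (edgeR adjusted p = 4.24e-06 and 5.88e-06). Supraspinatus and Patellar did not differ past the threshold (0.18 ± 1.0, edgeR adjusted p = 0.891).

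The size of the Flexor level rested on 1 library. Flexor replicate 4 held 12940 Grem1 counts, against 946 to 1778 in the other 3, and was 6.63-fold above the next Flexor library. Without it the Flexor mean fell from 38.4 ± 50.6 (SD, n = 4) to 13.2 ± 4.42 CPM (SD, n = 3). The difference from Achilles then became 1.57 on the log2 scale and stayed past the threshold (edgeR adjusted p = 0.0219). Without that library Patellar minus Flexor was -6.41 and Supraspinatus minus Flexor -6.25. Among 10389 named genes with a mean of at least 5 CPM over the other 3 Flexor libraries, Grem1 was the only one whose level in Flexor replicate 4 reached 4-fold that of each of those 3. The same search, added after the data were seen, found 1 gene, the muscle myosin gene Myl2, for Flexor replicate 1 and 0 for replicates 2 and 3. The neighbouring genes Scg5 and Fmn1 showed no rise of that size. Scg5, 17716 bases away, was at 0.405 CPM in Flexor replicate 4 and 0.366 to 0.550 in the other 3, and Fmn1, 29397 bases away, at 25.3 and 16 to 20.6 CPM.

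The summed level of some other cell types' markers was also higher in Achilles and Flexor than in the other 2 tendons. The 12 osteoblast and bone markers took 0.151% to 0.356% of counts in Achilles, 0.0667% to 0.154% in Flexor, 0.00708% to 0.0216% in Patellar, with 0.00253% to 0.00625% in Supraspinatus. The 10 Schwann cell markers took 0.0983% to 0.596%, 0.191% to 0.537%, 0.0459% to 0.0803% and 0.0382% to 0.0469% in the same order, and the 6 synovial lining markers 0.284% to 0.515%, 0.221% to 0.300%, 0.116% to 0.208% and 0.108% to 0.146%. No marker of the 3 lists was at 0 in all libraries of a tendon. By mean level, 10 of the 10 Schwann cell markers, 5 of the 12 bone markers and 3 of the 6 synovial markers were higher in both Achilles and Flexor than in both other tendons. The same held for 7 of the 10 endothelial markers, 7 of the 10 pericyte and smooth muscle markers and 3 of the 10 epidermis markers. It also held for 4 of the 12 cartilage markers, and 8 of those 12 were highest in Flexor. The median of the summed cartilage share was highest in Patellar. The bone share was mostly Spp1, with 73.6% of it in Achilles and 97.6% in Flexor, and only 5 of the 12 were higher in Flexor than in Patellar. For example, Ibsp averaged 4.38 CPM by library total in Flexor and 25.2 in Patellar, and Runx2 0.804 and 3.41. The 10 epidermis markers took 0.0177% to 0.0257% of counts in Flexor, above 0.00348% to 0.00578% in Achilles, 0.00189% to 0.00431% in Patellar and 0.00177% to 0.00300% in Supraspinatus. Sbsn made up 47.1% of that share in Flexor. The basal keratins Krt5 and Krt14 averaged 0.117 and 0.210 CPM by library total there, below 0.722 and 0.354 in Patellar, and 1 marker was at 0 in Patellar and 1 in Supraspinatus. In Flexor replicate 4 the Schwann cell share was 0.537%, against 0.191% to 0.339% in the other Flexor libraries, and the bone share 0.154%, against 0.0667% to 0.124%. The tendon fibroblast, synovial and cartilage shares also lay above those of the other Flexor libraries, with cartilage at 0.0295% against 0.0178% to 0.0208%. The muscle, adipocyte, endothelial, pericyte and smooth muscle, macrophage, red blood cell and rRNA-like shares lay below. The part of these cells in the Grem1 levels was not tested. With the muscle markers as a covariate, Grem1 in Patellar minus Achilles changed to -4.52 and lost its call (edgeR adjusted p = 0.127). Without Patellar replicate 1, the highest of its tendon, that difference was -5.58.

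The bases before a gene's start are shown for Grem1 and Bmp5, both highest in Flexor, and for Bmp4, lowest in Achilles, so that their makeup can be compared. Sequences are RefSeq's for GRCm38.p6, 250 bases up to the base before the start site, read on the gene's strand. Windows of 4 of the 9 genes were compared, those of Grem1, Bmp4, Bmp5 and Bmp6. The other members, Bambi among them, were left out of this comparison, so their motifs are not described. The RefSeq start of Bmp6, which is not shown, lies within the gene as annotated by GENCODE, so its window lies inside the span given for Bmp6 here. The windows are chr2:113758649-113758898 (minus strand) for Grem1, chr9:75775115-75775364 (plus) for Bmp5 and chr14:46390670-46390919 (minus) for Bmp4. Capitals mark GGCGCC and CCAAT.
Grem1: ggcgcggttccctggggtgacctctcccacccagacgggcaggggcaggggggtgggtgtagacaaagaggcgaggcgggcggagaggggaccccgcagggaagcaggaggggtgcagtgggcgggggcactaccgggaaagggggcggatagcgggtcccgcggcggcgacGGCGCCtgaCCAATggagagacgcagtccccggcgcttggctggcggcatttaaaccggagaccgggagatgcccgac
Bmp5: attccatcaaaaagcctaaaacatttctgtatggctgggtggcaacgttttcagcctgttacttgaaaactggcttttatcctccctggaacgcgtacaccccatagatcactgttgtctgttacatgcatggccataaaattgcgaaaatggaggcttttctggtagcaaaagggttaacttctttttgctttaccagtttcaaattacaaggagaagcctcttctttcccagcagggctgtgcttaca
Bmp4: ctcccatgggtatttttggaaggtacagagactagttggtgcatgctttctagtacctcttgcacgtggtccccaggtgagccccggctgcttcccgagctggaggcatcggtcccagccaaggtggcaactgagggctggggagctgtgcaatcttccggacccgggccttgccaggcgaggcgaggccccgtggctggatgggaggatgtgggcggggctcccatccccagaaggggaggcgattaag
The Grem1 window was 72.0% G and C with 24 CG pairs, the Bmp5 window 42.8% with 4, and the Bmp4 window 63.2% with 11. The median over 32841 such windows was 52.4%. GGCGCC, a GC-rich motif bound by BMP Smads, occurred once in the Grem1 window and in none of the windows of Bmp4, Bmp5 and Bmp6. It was present in 9.59% of all windows. CCAAT, searched on both strands, also occurred once, in the Grem1 window only of these 4, and in 33.9% of all windows. TATAAA, on both strands, occurred in none of the 4 and in 12.4% of all windows. The E-box CANNTG occurred 3 times in the Bmp4 window, 2 times in that of Bmp6 and not in those of Grem1 or Bmp5, and in 66.2% of all windows. GGCGCC and CANNTG read the same on both strands, and the 2 matches before Grem1 do not overlap.

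Bambi codes for a membrane protein that dampens BMP and TGF-beta signals (ENSMUSG00000024232, chromosome 18, 3507923 to 3516404, plus strand). In Flexor it stood at 46.2, 42.7, 30.2 and 38.7 CPM, and in Achilles at 20.1, 35.6, 20.8 and 27.5 CPM. In Patellar it stood at 8.89, 13.6, 7.43 and 13.7 CPM, and in Supraspinatus at 12.1, 14.0, 11.9 and 12.5 CPM. As for Grem1, all Flexor and Achilles libraries lay above all Patellar and Supraspinatus libraries, but Flexor and Achilles overlapped.

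Bambi was lower than in Flexor in Patellar (-1.85 ± 0.22, edgeR adjusted p = 6.15e-06) and in Supraspinatus (-1.64 ± 0.22, edgeR adjusted p = 3.49e-05). It was lower than in Achilles in Patellar (-1.25 ± 0.22, edgeR adjusted p = 0.000355) and in Supraspinatus (-1.04 ± 0.22, edgeR adjusted p = 0.00163). The span of tendon means was 3.61-fold, against 251-fold for Grem1, or 86.1-fold without Flexor replicate 4. Flexor and Achilles were 0.60 ± 0.21 apart (edgeR adjusted p = 0.0678), and Supraspinatus and Patellar 0.21 ± 0.22 (edgeR adjusted p = 0.438). In DESeq2 the Flexor minus Achilles difference passed (adjusted p = 0.0496), as it did without all Patellar libraries, without Patellar replicate 3 and without Achilles replicate 2 (edgeR adjusted p = 0.0262, 0.0308 and 0.0293). The Schwann cell markers above split the tendons in the same way in 10 of 10 genes, and the endothelial markers in 7 of 10. Their part in the Bambi levels was not tested. In Flexor replicate 4, where Grem1 was highest, Bambi was at the third of the 4 Flexor levels.

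Bmp4 and Bmp2 code for closely related ligands, and by exon length they were the most abundant of the 7. Per kilobase of exon, Bmp4 averaged 20.6 and Bmp2 7.98 CPM per kb over the 16 libraries. Bmp6 followed at 3.07 and Bmp5 at 2.35, and Gdf5 (0.941), Bmp7 (0.238) and Gdf6 (0.0300) were lower. On the same scale Bambi averaged 4.38 and Grem1 2.60. Lengths are the union of annotated exons.

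Bmp4 (ENSMUSG00000021835, chromosome 14, 46383520 to 46390669, minus strand) was lowest in Achilles. Its level there was 20.6, 16.6, 11.8 and 20.2 CPM, and in Flexor 35.4, 38.3, 43.7 and 31.6 CPM. In Patellar it was 72.5, 41.8, 34.1 and 127 CPM, and in Supraspinatus 62.4, 66.4, 73.9 and 44.4 CPM. All 12 libraries of the other tendons lay above the highest Achilles library. The Patellar libraries spread widest and overlapped both Flexor and Supraspinatus. Antisense genes that overlap Bmp4 held at most 113 counts in any library.

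Bmp4 was higher than in Achilles by 1.11 ± 0.32 in Flexor (edgeR adjusted p = 0.0266), 1.99 ± 0.33 in Patellar (edgeR adjusted p = 0.000223) and 1.84 ± 0.33 in Supraspinatus (edgeR adjusted p = 0.00049). It was also higher in Patellar than in Flexor, by 0.88 ± 0.32 (edgeR adjusted p = 0.0299). That call was lost without Patellar replicate 4 (0.37, edgeR adjusted p = 0.236), and without Patellar replicate 1 or Flexor replicate 1, 2 or 4 (edgeR adjusted p from 0.0586 to 0.077). The call against Achilles in Flexor was lost without Achilles replicate 2 or 3 or Flexor replicate 2 or 3 (0.96 to 1.10, edgeR adjusted p from 0.0608 to 0.0756). Supraspinatus and Flexor libraries did not overlap but missed the threshold (0.73 ± 0.32, edgeR adjusted p = 0.103), and passed it without all Patellar libraries (0.77, edgeR adjusted p = 0.00522) or without Patellar replicate 4 alone (0.70, edgeR adjusted p = 0.0369). With other single libraries left out, the edgeR adjusted p of Supraspinatus minus Flexor reached 0.221. With the muscle markers as a covariate, Patellar minus Achilles became 3.12 and Patellar minus Flexor 2.20 (edgeR adjusted p = 0.00359 and 0.0334). Flexor minus Achilles and Supraspinatus minus Achilles shrank to 0.92 and 1.39 (edgeR adjusted p = 0.0463 and 0.00965). Supraspinatus minus Flexor shrank to 0.48 (edgeR adjusted p = 0.283).

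Bmp2 (ENSMUSG00000027358, chromosome 2, 133552159 to 133562885, plus strand) was the only one of the 9 with no call. It stood at 28.2, 53.4, 18.0 and 43.9 CPM in Achilles and 28.0, 26.2, 18.9 and 18.2 in Flexor. It stood at 34.2, 33.0, 13.8 and 39.4 CPM in Patellar and 21.6, 22.1, 32.2 and 22.6 in Supraspinatus. The libraries of all 4 tendons overlapped, and the largest difference was -0.65 ± 0.32 in Flexor minus Achilles (edgeR adjusted p = 0.19).

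Bmp5, Bmp6 and Bmp7 code for a second subgroup of BMPs with similar mature proteins, and the means of Bmp5 and Bmp7 were highest in Flexor and that of Bmp6 in Supraspinatus. Bmp5 (ENSMUSG00000032179, chromosome 9, 75775364 to 75900310, plus strand) stood at 20.9, 23.0, 20.3 and 18.3 CPM in Flexor. In Supraspinatus it was at 15.4, 6.42, 10.8 and 10.2 CPM, in Achilles at 5.10, 5.06, 4.41 and 4.45, and in Patellar at 0.0230, 2.20, 2.74 and 2.07. The 4 tendons did not overlap for Bmp5. Patellar replicate 1 held 1 Bmp5 count, against 77 to 169 in the other Patellar libraries.

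Bmp5 was higher in Flexor than in Achilles (2.11 ± 0.54, edgeR adjusted p = 0.0141) and lower in Patellar than in Flexor (-3.56 ± 0.59, edgeR adjusted p = 0.000121). It was higher in Supraspinatus than in Patellar (2.62 ± 0.57, edgeR adjusted p = 0.00113). Patellar minus Achilles was -1.44 ± 0.55 (edgeR adjusted p = 0.0496), a call that most other settings and left-out libraries ended (edgeR adjusted p up to 0.202). Supraspinatus minus Achilles (1.17 ± 0.53, edgeR adjusted p = 0.1) and Supraspinatus minus Flexor (-0.94 ± 0.52, edgeR adjusted p = 0.204) missed the threshold. Both passed it without Patellar replicate 1, at 1.15 and -0.98 (edgeR adjusted p = 0.000508 and 0.00191). With other single libraries left out their edgeR adjusted p reached 0.243 and 0.381. With the muscle markers as a covariate the differences of Patellar from Achilles, from Flexor and of Supraspinatus from Patellar became -4.30, -6.79 and 6.36, and all 3 stayed past the threshold. With that covariate Supraspinatus minus Achilles became 2.06 and passed (edgeR adjusted p = 0.0176), while Supraspinatus minus Flexor shrank to -0.43 (edgeR adjusted p = 0.576). These values extrapolate, since the muscle shares of Patellar and Supraspinatus overlapped those of no other tendon. Patellar replicate 1, with 1 Bmp5 count, also had the highest muscle share of its tendon (0.921%).

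Bmp6 (ENSMUSG00000039004, chromosome 13, 38345107 to 38500302, plus strand), known also as the liver signal for iron balance, was highest in Supraspinatus. It stood there at 18.1, 26.5, 36.8 and 22.5 CPM. It stood at 8.95, 5.24, 7.62 and 6.06 CPM in Achilles, 8.02, 6.63, 7.12 and 7.05 in Flexor, and 5.10, 4.96, 13.3 and 7.94 in Patellar. Every Supraspinatus library lay above every other library, and the other 3 tendons overlapped.

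Bmp6 was higher in Supraspinatus than in Achilles (1.90 ± 0.30), Flexor (1.85 ± 0.29) and Patellar (1.74 ± 0.30), with edgeR adjusted p of 0.000161, 0.000193 and 0.000139. No other pair passed for Bmp6 (edgeR adjusted p from 0.698 to 0.936). Skeletal muscle markers were also highest in Supraspinatus, at 15.8% to 16.8% of counts. With those markers as a covariate the differences were 2.03, 1.93 and 2.28, and the last, against Patellar, missed the threshold (edgeR adjusted p = 0.0941). The last 224 exonic bases of Bmp6 are shared with Txndc5 on the other strand, a gene at 220 ± 63.1 CPM in Supraspinatus and 80.5 ± 6.05 to 144 ± 25.3 CPM in the others (SD, n = 4). The labels do not say whether the counting used strand, and the part of Txndc5 reads in Bmp6 was not tested.

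Bmp7 (ENSMUSG00000008999, chromosome 2, 172868012 to 172940321, minus strand) was low and uneven. It stood at 3.12, 1.74, 0.919 and 2.74 CPM in Flexor and at 1.06, 0.0198, 2.35 and 1.16 in Achilles, where replicate 2 held 2 counts. In Patellar it was at 0.138, 0.612, 1.11 and 0.0269 CPM. Supraspinatus libraries held 18, 0, 0 and 10 counts. Bmp7 was lower in Supraspinatus than in Flexor (-4.72 ± 1.21, edgeR adjusted p = 0.00801), with no overlap. It was also lower in Supraspinatus than in Achilles (-3.82 ± 1.18, edgeR adjusted p = 0.0201), with overlap. That call was lost without Achilles replicate 3 or Supraspinatus replicate 2 or 3 (edgeR adjusted p from 0.053 to 0.0561) and with the muscle covariate (edgeR adjusted p = 0.067). Without Supraspinatus replicate 1 the differences from Flexor and Achilles were -5.70 and -4.80.

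Gdf5 (ENSMUSG00000038259, chromosome 2, 155941023 to 155945367, minus strand), a joint and tendon ligand of the limb, was highest in Achilles. It stood at 7.37, 10.5, 3.02 and 7.64 CPM in Achilles and at 0.387, 0.690, 0.428 and 0.864 in Flexor. In Patellar it was at 0.436, 1.28, 0 and 0.215 CPM, and in Supraspinatus at 0.119, 0.0917, 0.391 and 1.54. Every Achilles library lay above every other library, and the other 3 tendons overlapped. Their levels rest on 40 to 98 counts a library in Flexor, 0 to 98 in Patellar and 7 to 135 in Supraspinatus.

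Gdf5 was lower than in Achilles in Flexor (-3.58 ± 0.88), Patellar (-3.77 ± 0.90) and Supraspinatus (-3.73 ± 0.89), with edgeR adjusted p of 0.0109, 0.00376 and 0.00439. Single libraries set the size in 2 of these. Without Patellar replicate 2 the Patellar difference was -4.92, and without Supraspinatus replicate 4 the Supraspinatus difference was -5.14. With the muscle markers as a covariate they were -6.0 and -2.98. The 12 cartilage markers took 0.0170% to 0.0316% of counts in Achilles, 0.0178% to 0.0295% in Flexor, 0.0263% to 0.0633% in Patellar, with 0.00615% to 0.0222% in Supraspinatus. By mean level, 3 of the 12 (Acan, Matn3 and Ucma) were highest in Achilles, as Gdf5 was, 8 in Flexor and 1 in Patellar, and Matn1 was at 0 in every Patellar library. Of the bone markers 7 of 12 were highest in Achilles. The part of these cells in the Gdf5 levels was not tested.

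Gdf6 (ENSMUSG00000051279, chromosome 4, 9844372 to 9862345, plus strand), a relative of Gdf5, was near the detection limit. Its counts were 12, 40, 2 and 18 in Achilles, 9, 16, 9 and 6 in Flexor, and 15, 5, 15 and 18 in Supraspinatus. All 4 Patellar libraries held 0, at 34559686 to 63235636 total counts, of which rRNA-like genes took 13.2% to 42.0%. Against a floor of 3 counts over the 4 Patellar libraries (0.0161 CPM), the level pooled over libraries was at least 10.9-fold higher in Achilles, 5.79-fold in Flexor and 9.72-fold in Supraspinatus. These bounds take no account of the spread between libraries. Achilles replicate 3, with 2 counts, was at 0.0200 CPM, close to that floor. Patellar was lower in all 3 comparisons (edgeR adjusted p = 0.00239 against Achilles, 0.00544 against Flexor and 0.00188 against Supraspinatus). The other 3 tendons overlapped and did not differ past the threshold (edgeR adjusted p from 0.452 to 0.867). With the muscle covariate the calls against Flexor and Supraspinatus were lost (edgeR adjusted p = 0.0531 and 0.0609).

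**Figure D2:**
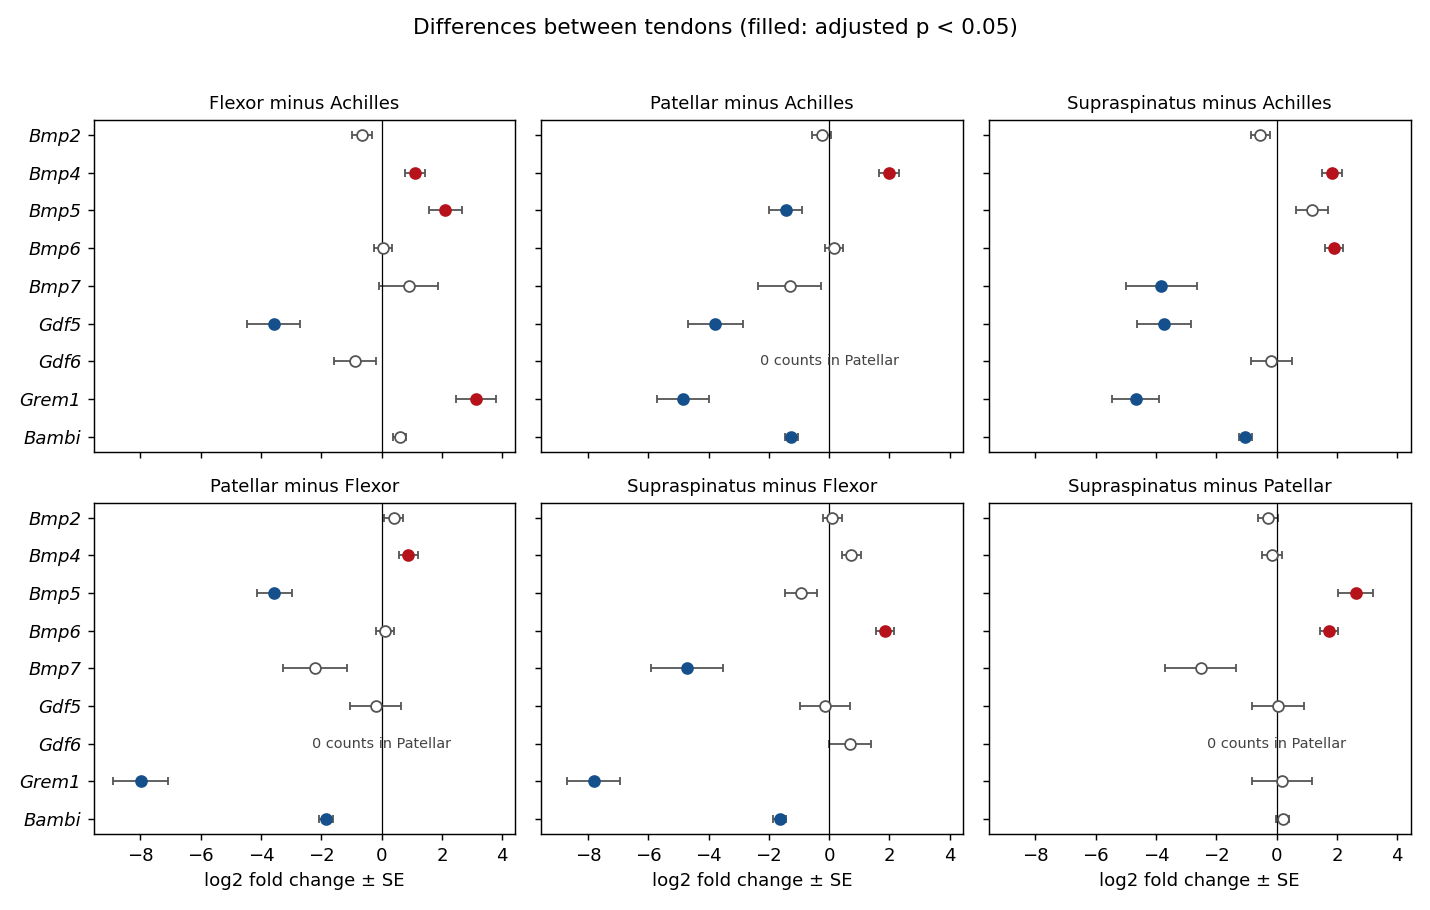
Log2 fold change with its standard error for the 9 genes in each of the 6 comparisons, with red points higher and blue points lower at an adjusted p under 0.05 and open points not called. Grem1 lay furthest from 0 in the comparisons of Patellar and Supraspinatus with Flexor, at -7.99 and -7.81, and Gdf6 has no point where Patellar held 0 counts.

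The makeup of the ligand pool differed by tendon. Here each ligand's CPM per kilobase is given as a percent of the sum of the 7, as a description with no test. In Achilles, Bmp2 made up 40.4% ± 8.80, Bmp4 32.4% ± 5.51 and Gdf5 12.2% ± 2.81 (SD, n = 4). In the other tendons Bmp4 was the largest part, with 53.8% ± 4.78 in Flexor, 70.2% ± 8.81 in Patellar and 62.2% ± 4.86 in Supraspinatus. Bmp5 made up 16.6% ± 0.818 in Flexor and 1.36% ± 1.27 to 6.20% ± 2.40 elsewhere. Bmp6 made up 15% ± 2.85 in Supraspinatus, close to Bmp2 there at 15.8% ± 1.95, and 6.04% ± 0.715 to 8.12% ± 3.79 elsewhere. Over the Flexor, Patellar and Supraspinatus libraries, the lowest Bmp4 share (49.5%) lay above the highest Bmp2 share (30.5%). In Achilles the ranges overlapped, with Bmp2 at 32.9% to 50.7% and Bmp4 at 24.9% to 38.0%.

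**Figure D3:**
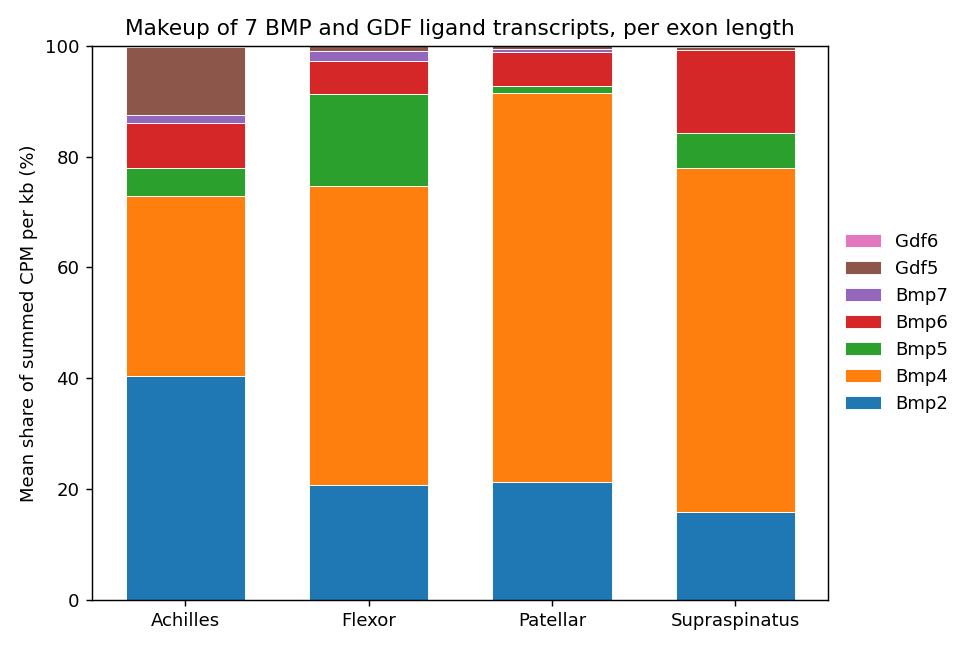
Mean share of each ligand in the summed CPM per kilobase of the 7 ligand genes, in percent, as stacked bars for the 4 tendons with 4 libraries each. Bmp2 was the largest part in Achilles at 40.4%, and Bmp4 in the other tendons at 53.8% to 70.2%.

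Other genes of the pathway were followed in fixed lists. Of all genes tested, 64.9% differed over the 4 tendons. The share called was 16.2% in Flexor minus Achilles, 38.4% in Patellar minus Achilles and 33.6% in Supraspinatus minus Achilles. It was 50.3% in Patellar minus Flexor, 27.1% in Supraspinatus minus Flexor and 53.3% in Supraspinatus minus Patellar. The list counts below were not tested against these shares. Of the 19 other secreted antagonists and modulators 17 were tested, and 15 differed over the 4 tendons. Between pairs, 4 were higher and 2 lower in Flexor than in Achilles, 6 and 3 in Patellar than in Achilles, and 7 and 4 in Supraspinatus than in Achilles. In Patellar minus Flexor 7 were higher and 5 lower, in Supraspinatus minus Flexor 5 and 3, and in Supraspinatus minus Patellar 4 and 7. Their median log2 difference lay between -0.25 and 0.25 in the 6 comparisons.

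Fst, which codes for the activin and BMP binder follistatin, was at 18.1 ± 2.45 CPM in Achilles and 16 ± 5.84 in Patellar, against 6.16 ± 0.411 in Flexor and 7.04 ± 0.834 in Supraspinatus (SD, n = 4). Fst was thus low in Flexor, where Grem1 was highest. Sostdc1, a BMP and Wnt antagonist, was at 12.4 ± 7.66 CPM in Achilles, 9.34 ± 4.68 in Flexor, 1.24 ± 0.704 in Patellar, with 0.106 ± 0.106 in Supraspinatus. Like Grem1 it was lower in both Patellar and Supraspinatus than in Achilles and Flexor, and unlike Grem1 it was also lower in Supraspinatus than in Patellar (edgeR adjusted p = 0.000971). The chordin relative Chrdl2 was at 1.49 ± 0.589 CPM in Flexor and 1.19 ± 0.203 in Supraspinatus, against 0.427 ± 0.0999 in Achilles and 0.0272 ± 0.0299 in Patellar. Htra1, a secreted protease, was at 275 ± 31.2 CPM in Patellar and 204 ± 14.8 in Supraspinatus, against 105 ± 29.2 in Achilles and 88.1 ± 18.1 in Flexor.

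Of the 13 other ligands 8 were tested and 7 differed over the tendons. In Supraspinatus 4 were higher and 3 lower than in Patellar, 2 higher and 1 lower than in Achilles, and 1 higher and 2 lower than in Flexor. In Patellar 1 was higher and 1 lower than in Achilles, and likewise against Flexor. In Flexor minus Achilles edgeR called 0 of the 8, with 0 at an unadjusted p under 0.05 and 0 by DESeq2. Gdf11, a ligand of the activin branch, was at 9.36 ± 2.02 CPM in Supraspinatus and 2.96 ± 1.2 to 3.36 ± 0.474 in the others (SD, n = 4). Bmp3, which opposes bone-forming BMPs, was at 4.30 ± 1.36 CPM in Supraspinatus and 9.80 ± 3.35 to 16.9 ± 4.83 in the others. Gdf7, of the same subgroup as Gdf5 and Gdf6, was at 0.367 ± 0.238 CPM in Patellar, where Gdf6 held 0 counts, and 0.00470 ± 0.00545 to 0.0282 ± 0.0273 in the others. Like Gdf6 it was low throughout, at most 0.694 CPM in any library. Gdf9, known from the oocyte, was at 0.194 ± 0.159 CPM in Patellar and 0.894 ± 0.153 to 1.15 ± 0.283 in the others.

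The list of receptors and co-receptors held 13 names, with hemojuvelin under both Hfe2 and Hjv. All 12 genes found were tested, and 7 differed over the tendons, a share under the 64.9% of all genes tested. In Supraspinatus 6 were higher than in Achilles and 6 higher than in Flexor, and the median log2 differences were 0.86 and 0.39. In both comparisons edgeR called 0 lower, with 0 at an unadjusted p under 0.05 and 0 by DESeq2. In Supraspinatus minus Patellar 7 were higher and 1 lower, in Patellar minus Achilles and in Patellar minus Flexor 1 higher and 3 lower, and 2 were higher in Flexor than in Achilles. The type I receptor gene Bmpr1a was at 149 ± 2.82 CPM in Supraspinatus and 54.6 ± 2.38 to 69.0 ± 10.4 in the others (SD, n = 4). Rgmb, a BMP co-receptor, was at 64.0 ± 10.6 CPM in Supraspinatus and 18.5 ± 1.95 to 32 ± 8.61 in the others. The co-receptor gene Hfe2 (hemojuvelin), which skeletal muscle expresses, was at 548 ± 56.6 CPM in Supraspinatus, 221 ± 75.6 in Achilles, 151 ± 57.9 in Flexor and 13.4 ± 13.6 in Patellar. Neo1, a receptor that works with these co-receptors, was at 79.8 ± 11.7 CPM in Supraspinatus and 24.1 ± 2.62 in Patellar. Muscle markers were likewise highest in Supraspinatus (15.8% to 16.8% of counts) and lowest in Patellar (0.0586% to 0.921%), and their part in these levels was not tested.

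Among 12 BMP Smads and regulators, 11 differed over the tendons. In Patellar 8 were higher than in Achilles, and edgeR called 0 lower, with 0 at an unadjusted p under 0.05 and 0 by DESeq2. In Supraspinatus 7 were higher and 1 lower than in Achilles, and the same numbers held against Flexor. In Patellar minus Flexor 8 were higher and 2 lower, in Supraspinatus minus Patellar 4 and 2, and in Flexor minus Achilles 2 and 5. The inhibitory Smad gene Smad6 was at 13.6 ± 4.07 CPM in Patellar and 16.7 ± 1.19 in Supraspinatus, against 6.29 ± 1.13 in Achilles and 4.14 ± 0.545 in Flexor (SD, n = 4), so it was low in the tendons where Grem1 and Bambi were high. The Smad corepressor gene Ski was highest in Patellar, at 168 ± 40.7 CPM against 61.2 ± 9.12 to 73.6 ± 5.95 elsewhere. The phosphatase gene Ctdspl was lowest in Supraspinatus, at 7.36 ± 1.43 CPM against 16.9 ± 2.09 to 47.1 ± 5.43 elsewhere. Ppm1a, another phosphatase gene, was highest there, at 158 ± 6.02 CPM against 42.3 ± 4.05 to 82.8 ± 19.7.

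Of 15 BMP target genes, 14 differed over the tendons. In Patellar 7 were lower and 1 higher than in Achilles, and in Supraspinatus 9 lower and 1 higher, with median log2 differences of -0.84 and -0.94. In Supraspinatus minus Flexor 2 were higher and 7 lower, in Patellar minus Flexor 4 and 6, and in Supraspinatus minus Patellar 4 and 5, while 2 were lower in Flexor than in Achilles. The homeobox genes Msx2 and Dlx5 had high means in Achilles and Flexor, as Grem1 did. Msx2 was at 8.75 ± 7.26 CPM in Achilles and 7.72 ± 3.09 in Flexor, against 0.367 ± 0.388 in Patellar and 0.436 ± 0.190 in Supraspinatus (SD, n = 4). Unlike Grem1, Msx2 overlapped between Achilles and Patellar, at 0.764 CPM in Achilles replicate 2 and 0.937 in Patellar replicate 3. Dlx5 was at 9.56 ± 5.71 CPM in Achilles and 9.23 ± 4.21 in Flexor, against 0.241 ± 0.198 in Patellar and 0.786 ± 0.442 in Supraspinatus. Both are also genes of bone-forming cells, and of the 12 bone markers 5 had the same split between the tendons. Msx1, a relative of Msx2, was at 67.1 ± 14.9 CPM in Flexor, 40.3 ± 9.82 in Achilles, 22.4 ± 11.2 in Patellar and 21.9 ± 3.20 in Supraspinatus. Tob1, an antiproliferative factor that binds Smads, was at 256 ± 28.2 CPM in Supraspinatus and 39.0 ± 8.71 to 91.4 ± 8.88 in the others. Id1, a standard BMP target named here after its values were seen, was the 1 gene of the list that did not pass (edgeR adjusted p = 0.877). Its level was 68.6 ± 8.23 CPM in Achilles, 74.3 ± 18.7 in Flexor, 69.8 ± 29.9 in Patellar, with 63.4 ± 9.97 in Supraspinatus. Id2, Id3 and Id4, also named after their values were seen, did differ over the tendons. They were lower in Supraspinatus than in Achilles (-1.31, -0.88 and -1.38, edgeR adjusted p = 0.00405, 0.00175 and 0.00973). Against Patellar they were also lower there (-1.62, -1.04 and -1.74, edgeR adjusted p = 0.000402, 0.000213 and 0.00116). In Supraspinatus minus Flexor Id2 and Id4 were lower, and Id3 missed the threshold (edgeR adjusted p = 0.109).

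**Figure D4:**
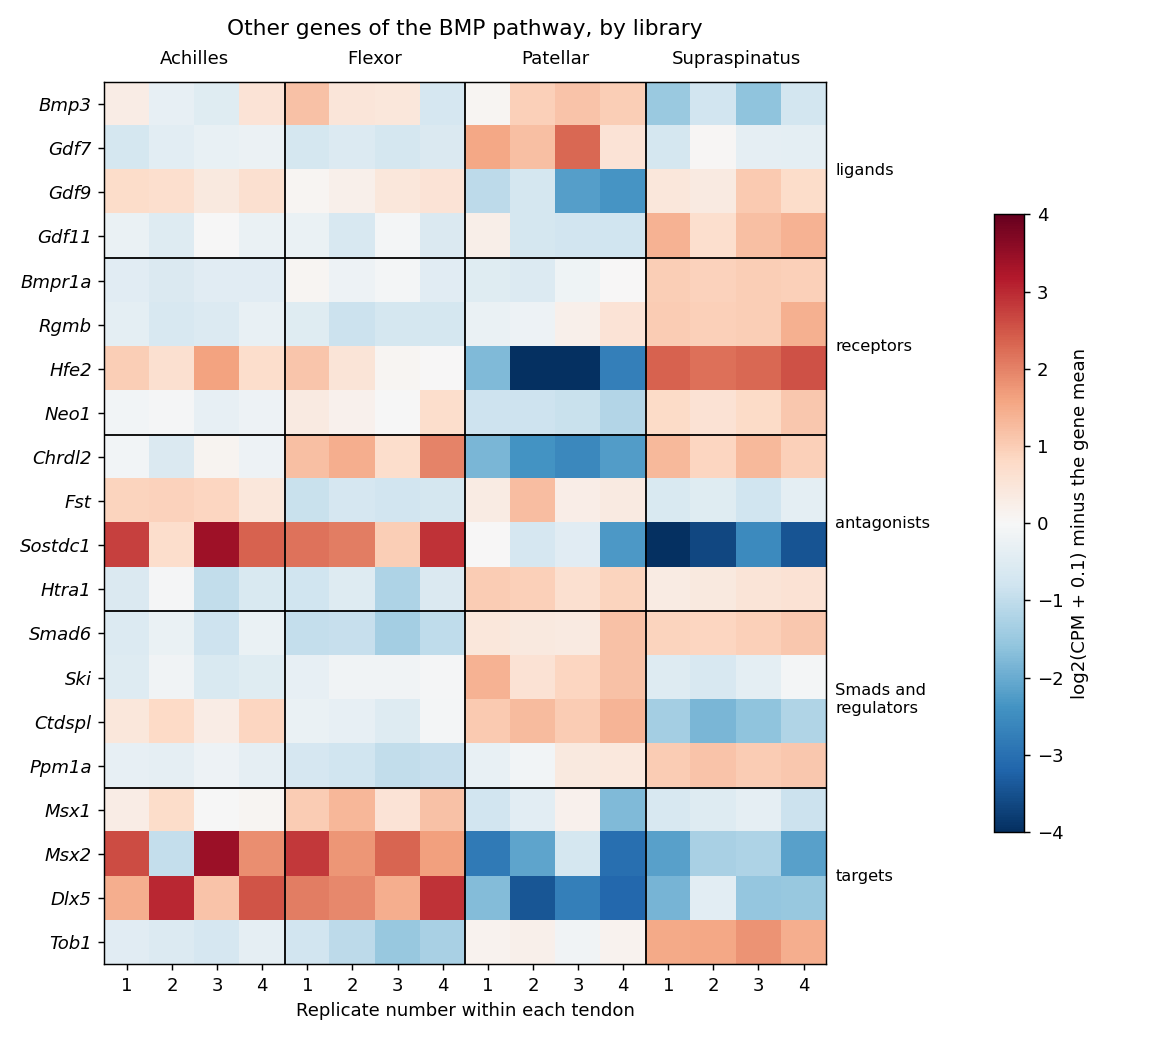
Log2(CPM + 0.1) of 20 other genes of the pathway in each of the 16 libraries, minus the mean of the gene over all libraries, with colours ending at 4 either way. Msx2, Dlx5 and Sostdc1 were high in Achilles and Flexor, except for Msx2 in Achilles replicate 2, and Bmpr1a, Rgmb and Tob1 were high in Supraspinatus.

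The genes most like each member were found by Pearson's r of log2 CPM over the 16 libraries, among 10717 named genes with a mean of at least 5 CPM. Libraries of 1 tendon lie together, so these values describe a shared pattern over the tendons. Nearest to Grem1 were Snrnp40 (r = 0.951), Clcn6 (0.947) and Frzb (0.945). Of these Frzb, a secreted Wnt antagonist, spanned a range like that of Grem1, with means of 149 CPM in Flexor, 63.4 in Achilles, 3.56 in Patellar and 1.5 in Supraspinatus. Snrnp40 ran only from 25.8 to 35.6 CPM. Nearest to Bambi were Scara3 (0.952), Scin (0.949) and Ewsr1 (0.948). For Bmp5 they were Lgals8 (0.966), Smg8 (0.959) and Dnmbp (0.955), and for Bmp4 Igfbp6 (0.925), Fam180a (0.916) and Heca (0.900). For Bmp6 they were Jak2 (0.933), Plcl2 (0.929) and Ube2l3 (0.928), and for Gdf5 Fmnl3 (0.903), Timeless (0.891) and Cog7 (0.879). For Bmp7 they were Gas2l3 (0.887), Cnp (0.887) and Frmd3 (0.882), for Gdf6 Pip5k1c (0.901) and Wdr35 (0.892), and for Bmp2, with the weakest match, Naglu (0.800), Slc22a15 (0.774) and Sh3rf1 (0.773).

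The authors' deposited table of comparisons lists 7 of the 9 genes. Of its 42 values for them, 41 had the sign found here, the exception being Gdf5 between Supraspinatus and Patellar, near 0 in both. A false discovery rate under 0.05 in the authors' deposited table marked 22 of the 42, and all 22 were called here. The 1 call made only here was Bmp5 in Patellar minus Achilles, at -1.36 with a false discovery rate of 0.0523 in the authors' deposited table.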

How the data were processed

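The authors deposited whole-number read counts for 41204 genes in 16 libraries. HISAT2, FastQC, edgeR and build mm10 are named, with no order, per the submitters' processing notes. The counter, strand setting and annotation release were not stated in any label or header. The authors also deposited log2 fold changes, mean log2 CPM, p-values and false discovery rates for 13452 genes, which are quoted only where that table is named. Its fold changes run the other way from those here, judged over all genes, and were turned round.

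In R 4.3.3, edgeR 4.0.16 was run with filterByExpr by tendon, TMM scaling and a robust quasi-likelihood fit of 1 mean per tendon over all 16 libraries, with two-sided tests. Each SE is the absolute log2 difference over the root of the F statistic. The search for similar patterns took log2 CPM values (prior count 2). GENCODE M21 on GRCm38, the assembly of mm10, gave positions and exon lengths for 41188 genes. Other settings were median-ratio scaling, no filter, DESeq2 1.42.0, the replicate number as a block, a muscle covariate, fewer libraries and no rRNA-like genes. The fit was also run on simulated counts, with outcomes not reported here. Figures were drawn with matplotlib 3.10.9.

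The genes named are the 9 members, up to 4 called genes per pathway list in order of adjusted p over the 4 tendons, and the 3 genes most like each member, of which 1 is not reported here. Id1, Id2, Id3, Id4, Txndc5, the neighbours of Grem1 and the single marker genes lie outside that rule and were chosen after their values were seen. The members, lists and settings were chosen with earlier results of these data known.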

Additional observations from a re-analysis of the deposited data

Results flagged for a closer look

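In 3 of 35 groups of 4 libraries, 1 library lay further from the rest than Dixon's test allows at the 95% level, and chance gives about 1 in 20. Grem1 in Flexor replicate 4 was at 114 CPM, with the other Flexor libraries at 8.44 to 17.2. Grem1 in Patellar replicate 1 was at 0.322 CPM, from 14 counts, with the others at 0.0781 to 0.108. Bmp2 in Supraspinatus replicate 3 was at 32.2 CPM, with the others at 21.6 to 22.6.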

How the results depend on the processing

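Over the settings other than leaving out 1 library, 368 of 400 member differences kept their direction and side of the threshold, and 810 of 864 did when 1 library was left out. In Flexor minus Achilles 3853 genes were called, 6960 without the Patellar libraries, 6580 from the 8 libraries of the pair and 2520 to 5358 without 1 library, lowest without Flexor replicate 2 and 2540 without Flexor replicate 3. In Patellar minus Achilles (9131) the muscle covariate left 4261 and the 8 libraries 5854. With the muscle covariate Patellar minus Flexor fell from 11952 to 5027 genes, and Supraspinatus minus Patellar from 12651 to 4069 genes and from 3 to 1 of the 9 members. The 8 libraries of Patellar and Flexor gave 3 members, against 5.

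Reversed directions were all of differences that were not called. With the muscle covariate these were Gdf6 in Flexor minus Achilles (0.47) and Supraspinatus minus Achilles (2.5), Bmp2 in Patellar minus Achilles (0.036), Bmp6 in Patellar minus Achilles (-0.25) and Patellar minus Flexor (-0.35), Gdf5 in Supraspinatus minus Flexor (0.27), and Bmp7 (0.039) and Grem1 (-0.28) in Supraspinatus minus Patellar. The cause was not tested. Leaving out 1 library gave, in Flexor minus Achilles, Bmp6 -0.10 to 0.16. In Patellar minus Achilles it gave Bmp2 -0.48 to 0.0057 and Bmp6 -0.25 to 0.35, and in Supraspinatus minus Achilles Gdf6 -0.55 to 0.59. In Patellar minus Flexor it gave Bmp6 -0.31 to 0.33 and Gdf5 -1.31 to 0.14, and in Supraspinatus minus Flexor Bmp2 -0.043 to 0.19 and Gdf5 -1.55 to 0.21. In Supraspinatus minus Patellar it gave Bmp4 -0.37 to 0.32, Gdf5 -1.36 to 1.19 and Grem1 -0.28 to 0.88. The test of Gdf6 over the tendons lost its call without Patellar (adjusted p = 0.43).

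Libraries of equal number deviated together little on average (24 pairs, mean r = 0.019, 2 over 0.1, highest 0.255). Pairs of different number had a mean r of -0.0063 (72 pairs, 7 over 0.1, highest 0.144). These values do not settle whether equal numbers mark one animal. With the replicate block, Bambi in Flexor minus Achilles passed (0.63, edgeR adjusted p = 0.0213), and Bmp5 in Patellar minus Achilles (-1.49, edgeR adjusted p = 0.0776) and Bmp4 in Patellar minus Flexor (0.78, edgeR adjusted p = 0.0735) did not. Gdf6 in Supraspinatus minus Achilles, not called, became 0.20. The block left 3555 genes called in Flexor minus Achilles. Depth limits Gdf6, and both Bmp7 and Grem1 in Patellar and Supraspinatus, which rest on under 50 counts a library. It also limits Gdf5 outside Achilles, at 0 to 135 counts a library. Low levels likewise limit Gdf7, at most 0.694 CPM in any library, and Gdf9 and Chrdl2 in Patellar, at most 0.377 and 0.0689 CPM.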
